A study of Arabidopsis thaliana with 9 samples.

Results

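A set of 10 genes known for induction by darkness and by lack of sugar was followed among the 32833 genes of the count table, chosen by their locus IDs. They were SEN1 (also DIN1, AT4G35770), DIN2 (AT3G60140), DIN3 (AT3G06850), DIN4 (AT3G13450), ASN1 (also DIN6, AT3G47340), DIN9 (AT1G67070), DIN10 (AT5G20250), DIN11 (AT3G49620), SIS (AT5G02020) and BCAT2 (AT1G10070). Of these 10 genes, 8 passed the filter on low counts and were tested, and DIN2 and DIN9 did not pass it. The libraries came from whole rosettes of Arabidopsis thaliana at 4 weeks of age, grown under 16 h of light and 8 h of darkness. The TINYOE libraries carry the genotype label BES1P::TINYOE, a construct name in which BES1P stands before TINY, a transcription factor of the AP2/ERF family. The tiny124 libraries carry the label tiny1tiny2tiny4, a name for a mutant in 3 tiny genes, and the WT libraries are labelled WT, with 3 replicates in each of the 3 genotypes. The labels do not give the accession, the alleles, the cells in which the construct is active, the number of transgenic lines, the hour of harvest, or whether replicates were separate plants or pools. The p-values therefore measure the spread between these libraries, which may be technical.

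In plants, carbon fixed by day is held as starch and sugar and is spent at night. When sugar runs short, the kinase SnRK1 and bZIP transcription factors of the C and S1 groups are known to switch on genes that release energy and nitrogen from protein, amino acids and cell wall sugars, and the dark-inducible (DIN) genes were found as members of that response. ASN1 moves nitrogen into asparagine for transport, and DIN3, DIN4 and BCAT2 take part in the breakdown of leucine, isoleucine and valine, whose carbon can feed respiration in place of sugar.

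Promoter sequence is shown for 4 genes, because SEN1 and SIS differed most between TINYOE and WT, ASN1 rose in both lines, and DIN11 had its highest level in tiny124. The windows are the 250 bases before the annotated start in RefSeq's TAIR10.1, written 5′ to 3′ on the strand of the gene. The labels name TAIR10 for the mapping and the count table holds no coordinates. SEN1 lies on the plus strand, and its window is chr4:16944678-16944877, since the farthest 50 bases lie in an exon of the neighbouring AT4G35760 and are left out. ASN1 lies on the minus strand (chr3:17441432-17441681), and 136 bases of its window are within the coding part of the neighbouring AT3G47341. SIS lies on the minus strand (chr5:388232-388481) and DIN11 on the plus strand (chr3:18393497-18393746). Capitals mark matches to the motifs searched on both strands, so that CTTATC is GATAAG read on the other strand.
SEN1: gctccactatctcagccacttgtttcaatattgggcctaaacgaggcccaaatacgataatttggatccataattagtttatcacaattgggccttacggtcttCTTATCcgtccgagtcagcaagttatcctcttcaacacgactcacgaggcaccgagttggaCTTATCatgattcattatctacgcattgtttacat
ASN1: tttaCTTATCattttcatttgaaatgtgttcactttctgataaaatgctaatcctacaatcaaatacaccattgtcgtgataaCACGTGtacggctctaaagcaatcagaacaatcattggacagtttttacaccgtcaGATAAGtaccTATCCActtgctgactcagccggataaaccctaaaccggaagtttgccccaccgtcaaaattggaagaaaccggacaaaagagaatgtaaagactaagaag
SIS: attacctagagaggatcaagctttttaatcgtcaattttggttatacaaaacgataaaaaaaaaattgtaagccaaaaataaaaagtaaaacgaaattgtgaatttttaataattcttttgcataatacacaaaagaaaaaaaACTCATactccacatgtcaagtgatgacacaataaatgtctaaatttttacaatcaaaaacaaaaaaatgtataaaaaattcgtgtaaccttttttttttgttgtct
DIN11: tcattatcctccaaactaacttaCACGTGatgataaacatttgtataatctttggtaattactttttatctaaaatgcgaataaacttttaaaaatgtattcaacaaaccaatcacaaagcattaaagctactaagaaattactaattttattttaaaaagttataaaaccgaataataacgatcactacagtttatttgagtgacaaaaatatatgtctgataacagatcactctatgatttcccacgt

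The letters searched were CACGTG (the G-box core bound by bZIP and bHLH factors), TACGTA (an A-box core), ACTCAT (bound by S1 bZIP factors), ACCGAC (a dehydration-responsive element of DREB factors, the subfamily of TINY), GCCGAC (another form of that element), GCCGCC (the GCC box of ERF factors), TATCCA (a sugar-starvation element described in rice) and GATAAG (the I-box). SEN1 held GATAAG beginning 96 and 35 bases before the start. ASN1 held GATAAG at 246 and 111 bases, CACGTG at 167 and TATCCA at 101. SIS held ACTCAT at 107 bases and DIN11 held CACGTG at 227 bases. Over the 10 genes, GATAAG was present in 5 windows, against 12.3% of 27437 promoter windows of the same length in the genome. Those 5 were of SEN1, ASN1, DIN3, DIN9 and BCAT2, and the windows of SIS, DIN10, DIN4, DIN2 and DIN11 held none. CACGTG was present in 2 of 10 (6.49% of all windows), ACTCAT in 2 of 10 (12.3%) and TATCCA in 1 of 10 (13.6%). No match in the 10 windows was found for TACGTA (4.95% of all windows), for ACCGAC (4.71% of all windows), for GCCGAC (2.56% of all windows) or for GCCGCC (1.87% of all windows). TATCCA can share the letters TATC with GATAAG on the other strand, and in the 4 windows shown no matches shared a base. A match describes letters and is not a measured binding site.

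Library totals ranged from 4917868 to 6070778 counts, and each count is 1 read near the 3′ end of a polyadenylated transcript. Along the main axis of a principal component analysis (43% of the variance) the TINYOE libraries lay between -53.16 and -39.17, the tiny124 libraries between 6.82 and 31.96, and WT replicates 1 and 3 at 53.91 and 31.48. WT replicate 2 stood apart from its group at -0.53, so results are also given without it. TINY itself (AT5G25810) was at 5.39 ± 0.762 CPM in TINYOE, 0.706 ± 0.132 CPM in tiny124 and 4.06 ± 0.45 CPM in WT (SD, n = 3 each), where CPM is the count scaled to a common library size by the TMM method. TINY fell in tiny124 (log2 fold change -2.48 against WT, adjusted p = 0.00168, edgeR) and was not called in TINYOE (0.40, adjusted p = 0.343). TINY2 was under the filter, with a mean of 0.168 CPM in TINYOE, 0.0628 CPM in tiny124 and 1.48 CPM in WT. Whether the transgene carries the part of the transcript that the reads cover is not given in the sources used here, so the level of TINY does not check the TINYOE label. The 5 leaf markers, such as RBCS1A and LHCB2.1, were abundant in all 9 libraries.

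In TINYOE, 6 of the 10 genes rose against WT at an adjusted p under 0.05, and none fell. Their fold changes ran from 8.61-fold (SEN1) and 8.22-fold (SIS) through 3.96-fold (ASN1) and 2.76-fold (DIN10) to 2.03-fold (DIN3) and 1.74-fold (DIN4). In tiny124, 5 of the 10 rose against WT and none fell, with DIN11 at 3.99-fold, ASN1 at 3.28-fold, SEN1 at 3.23-fold, SIS at 2.65-fold and DIN10 at 1.88-fold. Among all 16434 genes tested, 8.15% were higher and 7.44% lower in TINYOE than in WT (15.6% called), and 1.75% were higher and 0.755% lower in tiny124 than in WT (2.5% called). The median log2 fold change of the 8 tested genes was 1.24 in TINYOE and 1.16 in tiny124, while that of all genes tested was 0.0015 and -0.0127. Both comparisons used the same 3 WT libraries. The samples are whole rosettes, in which a change in the number of cells of a type and a change in RNA per cell cannot be told apart. DIN11 reached the filter's level of 1.8 CPM in only 1 WT library and passed through the TINYOE and tiny124 libraries.

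**Figure D1:**
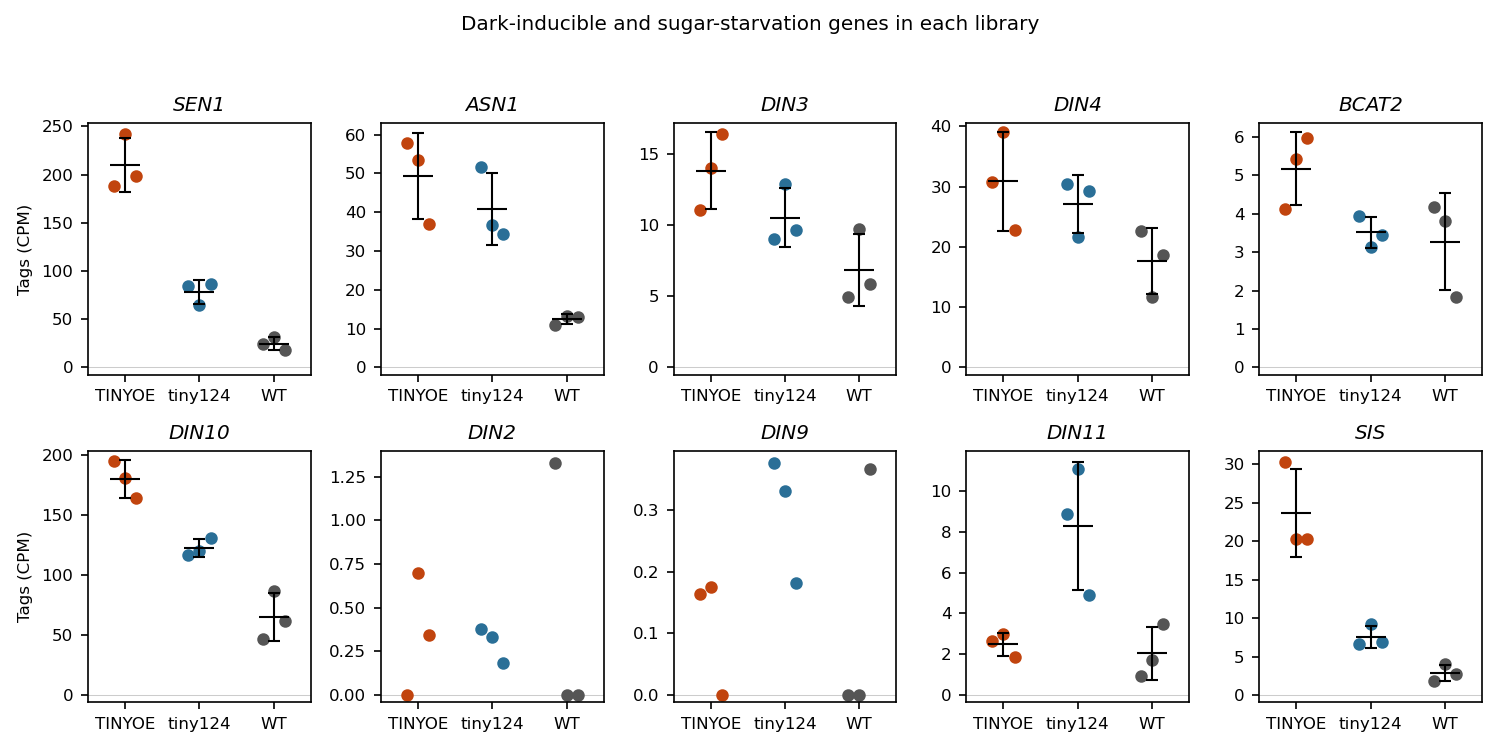
Level of each of the 10 genes in each library, in TMM-scaled CPM, with TINYOE, tiny124 and WT from left to right. Points are libraries and bars are the mean ± SD of 3 libraries, left out for DIN2 and DIN9, which had at most 7 counts in a library. SEN1, DIN10 and SIS stand highest in TINYOE, between in tiny124 and lowest in WT, while DIN11 stands highest in tiny124.

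SEN1 encodes a chloroplast protein with a rhodanese (sulfurtransferase) domain and is a classic marker of darkness and leaf senescence. It had 189, 242 and 199 CPM in the 3 TINYOE libraries, 84.9, 64.3 and 86.6 CPM in the tiny124 libraries, and 24.3, 31.3 and 17.6 CPM in the WT libraries. The genotypes did not overlap in any pair, and the order was TINYOE, tiny124, WT. Of all genes tested, 16.2% had all TINYOE libraries above all WT libraries, 8.23% all tiny124 libraries above WT, and 15.5% all TINYOE libraries above tiny124. The log2 fold change was 3.11 ± 0.22 in TINYOE over WT (± SE, adjusted p = 1.12e-06, edgeR's quasi-likelihood test) and 1.69 ± 0.21 in tiny124 over WT (adjusted p = 0.000357). TINYOE also exceeded tiny124, by 1.42 ± 0.20 (adjusted p = 0.000274). All 3 calls were made in each of the 15 alternative settings.

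ASN1 encodes a glutamine-dependent asparagine synthetase. It had 57.8, 53.5 and 36.9 CPM in TINYOE, 51.6, 36.7 and 34.3 CPM in tiny124, and 11.0, 13.3 and 13.0 CPM in WT. Both lines lay above every WT library and overlapped each other. The log2 fold change over WT was 1.99 ± 0.22 in TINYOE (adjusted p = 3.13e-05) and 1.71 ± 0.22 in tiny124 (adjusted p = 0.000464), and both calls were made in each of the 15 alternatives. Between TINYOE and tiny124 it was 0.27 ± 0.21 and did not pass the test (adjusted p = 0.465). The related synthetase genes ASN2 and ASN3 were not called. ASN2, the more abundant, averaged 45.9 CPM in TINYOE, 41.4 CPM in tiny124 and 46.3 CPM in WT.

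DIN10 encodes a protein of the raffinose synthase family. It had 195, 181 and 164 CPM in TINYOE, 117, 121 and 131 CPM in tiny124, and 47.1, 87.0 and 61.8 CPM in WT, with no overlap between any pair of genotypes. The log2 fold change was 1.47 ± 0.20 in TINYOE over WT (adjusted p = 0.000154), called in each of the 15 alternatives. In tiny124 over WT it was 0.91 ± 0.20 (adjusted p = 0.0199), and that call was lost with only the 6 libraries compared, without any 1 of the tiny124 libraries, and without WT replicate 3. Although no library overlapped, the difference of 0.56 ± 0.19 between TINYOE and tiny124 did not pass the test (adjusted p = 0.0852). It passed in 4 of the 15 alternatives, with no filter, with only the 6 libraries compared, and without WT replicate 1 or 2. Of the relatives of DIN10 in the same family, RS2 was the most abundant, at 122 ± 17.6 CPM in TINYOE, 143 ± 20.6 CPM in tiny124 and 100 ± 8.58 CPM in WT, and it was not called.

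SIS, named for salt induction and a serine-rich product, showed the second highest fold change of the 8 tested genes in TINYOE. It had 30.3, 20.3 and 20.3 CPM in TINYOE, 6.59, 9.26 and 6.90 CPM in tiny124, and 1.90, 4.02 and 2.75 CPM in WT, again without overlap between genotypes. The log2 fold change was 3.04 ± 0.29 in TINYOE over WT (adjusted p = 9.63e-06) and 1.63 ± 0.25 in TINYOE over tiny124 (adjusted p = 0.000446), both called in each of the 15 alternatives. In tiny124 over WT it was 1.40 ± 0.31 (adjusted p = 0.0216), a call lost without tiny124 replicate 1 or 2, or without WT replicate 1 or 3.

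DIN11 encodes a protein of the 2-oxoglutarate- and iron-dependent dioxygenase superfamily, and its pattern differed from those of SEN1 and SIS. It had 2.63, 2.98 and 1.88 CPM in TINYOE, 8.85, 11.1 and 4.90 CPM in tiny124, and 0.95, 1.69 and 3.48 CPM in WT. In counts these were 16, 17 and 11 in TINYOE, 47, 67 and 27 in tiny124, and 5, 8 and 19 in WT. The tiny124 libraries lay above all others, and TINYOE lay within the range of WT. The log2 fold change was 2.0 ± 0.41 in tiny124 over WT (adjusted p = 0.014) and 0.27 ± 0.47 in TINYOE over WT (adjusted p = 0.73), while TINYOE lay below tiny124 by 1.72 on that scale (log2 fold change -1.72 ± 0.39, adjusted p = 0.00852). WT replicate 3 moved these values most, and without it they were 2.65 in tiny124 over WT and 0.93 in TINYOE over WT (adjusted p = 0.285). The tiny124 call against WT was lost without tiny124 replicate 1 or 2, and the call between the lines without TINYOE replicate 3 or tiny124 replicate 2.

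DIN3, DIN4 and BCAT2 belong to the breakdown of branched-chain amino acids. BCAT2 encodes an aminotransferase of the first step, and DIN4 and DIN3 encode the E1 beta and E2 subunits of the branched-chain keto acid dehydrogenase of the second step. DIN3 had 11.0, 14.02 and 16.4 CPM in TINYOE, 9.04, 12.9 and 9.62 CPM in tiny124, and 4.94, 9.74 and 5.87 CPM in WT. Its TINYOE libraries lay above every WT library (log2 fold change 1.02 ± 0.27, adjusted p = 0.0162), a call lost without TINYOE replicate 2 or 3, or without WT replicate 1 or 3. In tiny124 over WT the value for DIN3 was 0.63 ± 0.27 (adjusted p = 0.356). DIN4 had 30.8, 39.1 and 22.7 CPM in TINYOE, 30.5, 21.7 and 29.2 CPM in tiny124, and 22.6, 11.7 and 18.7 CPM in WT. The lowest TINYOE library of DIN4, at 22.72 CPM, and the highest WT library, at 22.59 CPM, nearly met. Its log2 fold change was 0.80 ± 0.25 in TINYOE over WT (adjusted p = 0.0398) and 0.61 ± 0.25 in tiny124 over WT (adjusted p = 0.318). The TINYOE call for DIN4 (adjusted p between 0.00342 and 0.178 over all alternatives) was lost with only the 6 libraries compared, and without TINYOE replicate 1 or 2, tiny124 replicate 1, or WT replicate 2 or 3. BCAT2 had 4.12, 5.43 and 5.98 CPM in TINYOE, 3.95, 3.14 and 3.45 CPM in tiny124, and 4.18, 3.81 and 1.83 CPM in WT. Each line overlapped WT, and BCAT2 was not called in TINYOE (0.66 ± 0.32, adjusted p = 0.175) or in tiny124 (0.11 ± 0.34, adjusted p = 0.954). The TINYOE libraries lay above the tiny124 libraries without passing the test (0.56 ± 0.31, adjusted p = 0.312).

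**Figure D2:**
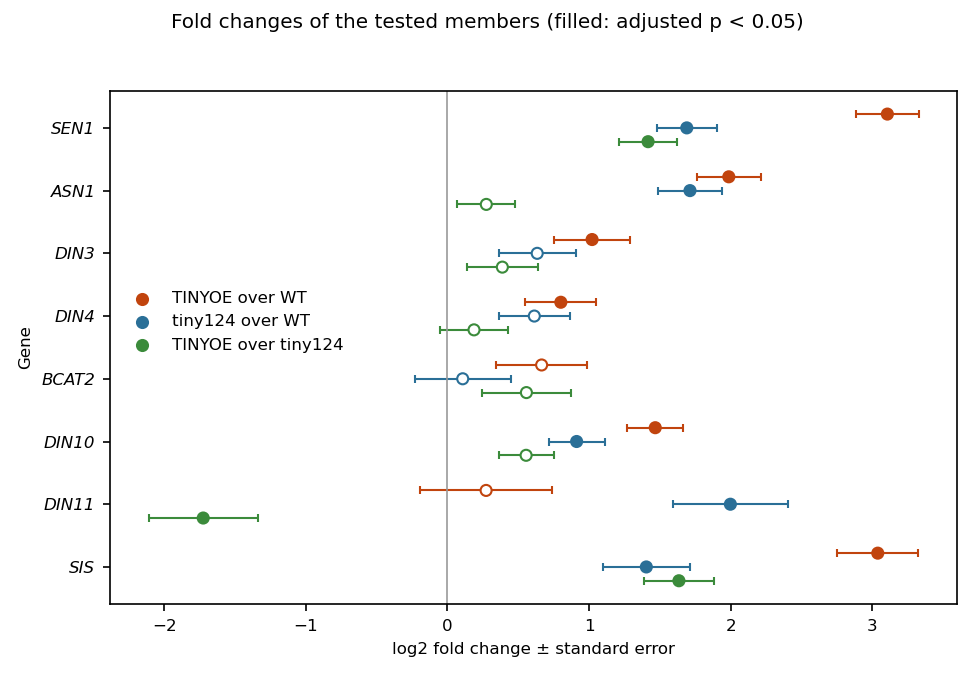
Log2 fold changes with their standard errors for the 8 tested genes, from edgeR's fit of all 9 libraries, for TINYOE over WT, tiny124 over WT and TINYOE over tiny124. Filled points have an adjusted p under 0.05. SEN1 and SIS lie near 3.1 and 3.0 in TINYOE over WT, and DIN11 lies at -1.72 in TINYOE over tiny124, left of the line at 0.

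DIN2 encodes the beta-glucosidase BGLU30 and DIN9 the mannose-6-phosphate isomerase PMI2. DIN2 had 0, 4 and 2 counts in TINYOE, 2, 2 and 1 in tiny124, and 7, 0 and 0 in WT. DIN9 had 1, 1 and 0 counts in TINYOE, 2, 2 and 1 in tiny124, and 0, 0 and 2 in WT. A count of 3 in 1 library corresponded to 0.494 to 0.635 CPM, a floor for counting error only, and no difference in DIN2 or DIN9 was detectable at this depth. PMI1, the other mannose-6-phosphate isomerase gene, was tested and not called (20.8 CPM in TINYOE, 16.3 CPM in tiny124 and 16.3 CPM in WT). Of 13 sequence relatives of the 10 genes 5 were tested, and none passed in TINYOE or in tiny124 against WT by edgeR or by DESeq2. At an unadjusted p under 0.05, 0 of the 5 passed in TINYOE and 2 in tiny124. Without WT replicate 2, 1 was called in TINYOE.

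Without WT replicate 2, SEN1, ASN1, DIN10, DIN3 and SIS stayed called in TINYOE and SEN1, ASN1, DIN10, DIN11 and SIS in tiny124. WT replicate 2 was the highest of the WT libraries in 5 of the 8 tested genes, and its median deviation from the WT mean over those genes was 0.33 on the log2 scale. SEN1 then stood at 3.33 in TINYOE and 1.91 in tiny124, and DIN10 at 1.73 and 1.18, all log2 fold changes over WT. DIN4 lost its TINYOE call (0.59, adjusted p = 0.0826), and DIN10 became called between the lines (0.55 in TINYOE over tiny124, adjusted p = 0.0213). Within TINYOE and within tiny124, no library was the highest in more than 3 of the 8 genes, the lowest such number possible with 3 libraries. By sign, TINYOE replicate 2 lay above its group mean in 7 of the 8 genes (median deviation 0.11) and TINYOE replicate 3 in 2 (-0.16). WT replicate 2 lay above its group mean in 6 of the 8. In tiny124 the numbers were 5, 3 and 3 for replicates 1, 2 and 3. The authors' deposited table, whose 8 libraries do not include WT replicate 2, gives DIN3 an adjusted p of 0.0357 in tiny124 over WT. In the authors' deposited table DIN4 has an adjusted p of 0.117 in TINYOE over WT.

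Between the lines, 2 of the 10 genes were higher in TINYOE than in tiny124 (SEN1 and SIS) and 1 was lower (DIN11). Of all genes tested, 5.12% were higher and 4.73% lower in that comparison, or 9.85% in all. Each of the 3 called genes had no overlap between the lines, and 15.3% of all genes had all TINYOE libraries below tiny124, as DIN11 did.

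The other genes of branched-chain amino acid breakdown moved unevenly. Of 16 such genes tested, 3 rose and 1 fell in TINYOE against WT, and the median log2 fold change was 0.078. Among all genes tested, 8.15% were higher and 7.44% lower in TINYOE, shares to set beside this list and those that follow. IVD, isovaleryl-CoA dehydrogenase of the leucine branch, had 22.7, 20.7 and 17.4 CPM in TINYOE, 12.1, 11.4 and 8.53 CPM in tiny124, and 6.08, 9.53 and 7.15 CPM in WT. Its log2 fold change was 1.42 ± 0.23 in TINYOE over WT (adjusted p = 0.000524) and 0.50 in tiny124 over WT (adjusted p = 0.433). MCCA and MCCB, the subunits of the next enzyme on the leucine branch, rose in TINYOE by 1.34 ± 0.24 (adjusted p = 0.00132) and 0.62 ± 0.20 (adjusted p = 0.0457). The MCCB call was made in 5 of 15 alternatives. It was lost with only the 6 libraries compared, without any 1 of the TINYOE or tiny124 libraries, and without WT replicate 1 or 3. LPD1, a mitochondrial lipoamide dehydrogenase shared with the glycine decarboxylase of photorespiration, fell in TINYOE (-0.73 ± 0.17, adjusted p = 0.0088), a call lost without TINYOE replicate 1, and was not called in tiny124 (-0.39, adjusted p = 0.379). In tiny124 none of the 16 was called by edgeR or by DESeq2, with 2 at an unadjusted p under 0.05. The nearest to the threshold among those named was MCCA, at 0.91 ± 0.25 (adjusted p = 0.0663), which was called with no filter and without WT replicate 2.

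**Figure D3:**
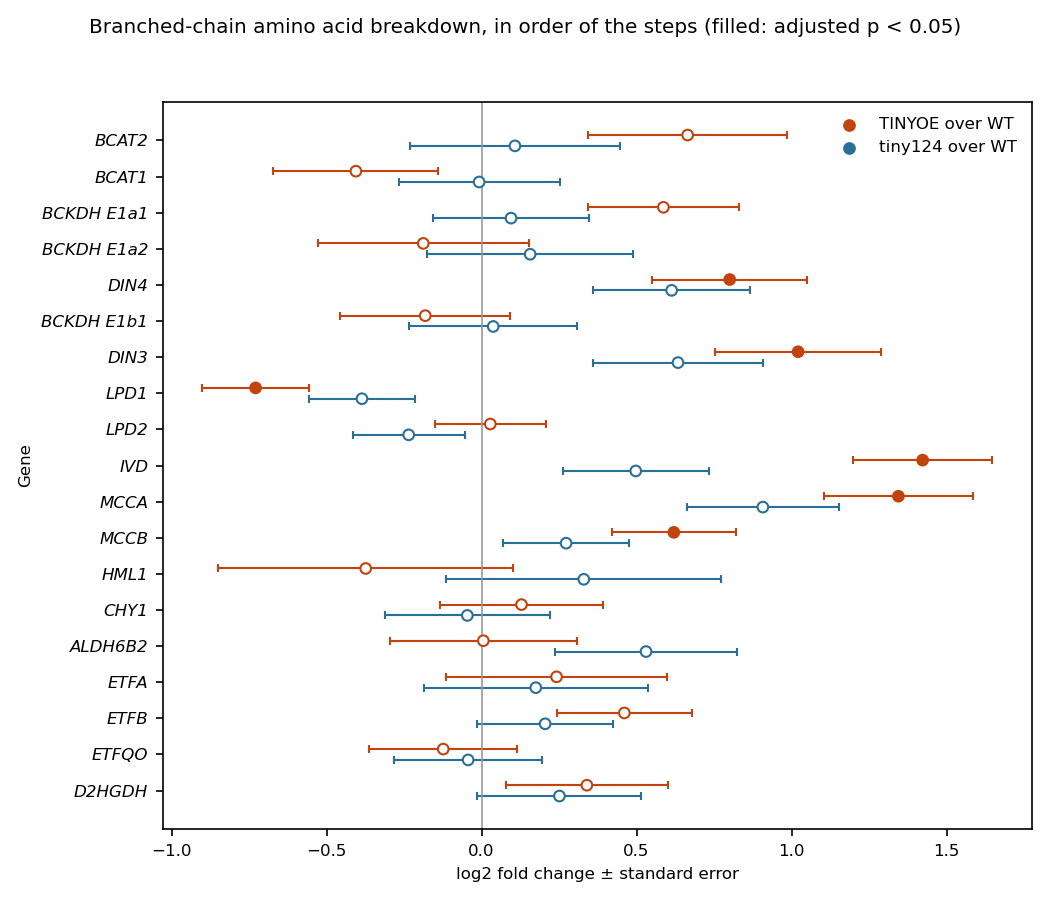
Log2 fold changes over WT with their standard errors for BCAT2, DIN4, DIN3 and the other genes of branched-chain amino acid breakdown, from the first step at the top, in TINYOE and tiny124. Filled points have an adjusted p under 0.05. In TINYOE, DIN4, DIN3, IVD, MCCA and MCCB lie to the right of 0 and LPD1 to the left, and in tiny124 no point is filled.

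Of 9 tested genes of other amino acid breakdown and asparagine synthesis, 2 rose in TINYOE against WT and none fell, with a median of 0.29. GDH1, a glutamate dehydrogenase that returns carbon from glutamate to respiration, had 81.7, 69.8 and 52.6 CPM in TINYOE, 48.0, 37.2 and 36.7 CPM in tiny124, and 17.7, 27.5 and 24.2 CPM in WT. It was called in TINYOE (1.56 ± 0.21, adjusted p = 0.000177). In tiny124 the GDH1 libraries lay above every WT library without passing the test (0.81 ± 0.22, adjusted p = 0.0601), and GDH1 was called there by DESeq2, with no filter and without WT replicate 2. GDH2 was called in TINYOE (0.95 ± 0.30, adjusted p = 0.0417) in 7 of 15 alternatives, and not by DESeq2. That call was also lost with only the 6 libraries compared, and without TINYOE replicate 1 or 2, tiny124 replicate 1, or WT replicate 1 or 3. None of the 9 was called in tiny124 by edgeR, with 2 at an unadjusted p under 0.05 and 1 called by DESeq2.

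All 9 of the further markers of sugar starvation rose in TINYOE against WT, with a median log2 fold change of 1.08, and 7 of the 9 rose in tiny124, with a median of 1.19. These markers were chosen with results of these libraries known. SEN5, which is induced by darkness, had 3146, 4166 and 3208 CPM in TINYOE, 2635, 2585 and 2570 CPM in tiny124, and 714, 1027 and 666 CPM in WT. The dormancy-associated genes DRM2 and DRM1 followed the same order of means. DRM2 averaged 1969 ± 454 CPM in TINYOE, 1116 ± 131 CPM in tiny124 and 473 ± 128 CPM in WT, and DRM1 720 ± 113 CPM in TINYOE, 559 ± 65.0 CPM in tiny124 and 247 ± 8.88 CPM in WT. SEN5 (adjusted p = 5.38e-06 in TINYOE and 0.000101 in tiny124), DRM2 (1.43e-05 and 0.00368) and DRM1 (1.84e-05 and 0.000728) were called in both lines in each of the 15 alternatives. EXL1, an EXORDIUM-like gene of low-carbon growth, had 18.4, 7.89 and 15.2 CPM in TINYOE, 33.1, 28.3 and 20.9 CPM in tiny124, and 2.28, 8.26 and 3.30 CPM in WT. Its log2 fold change over WT was 1.61 ± 0.39 in TINYOE (adjusted p = 0.0102) and 2.59 ± 0.38 in tiny124 (adjusted p = 0.00132). The TINYOE libraries overlapped WT in EXL1, and that call was lost without TINYOE replicate 1 or WT replicate 3. Without WT replicate 2 the EXL1 values were 2.31 in TINYOE and 3.29 in tiny124. TPS8, a class II trehalose phosphate synthase gene, was at 28.1 ± 6.24 CPM in TINYOE, 37.1 ± 4.35 CPM in tiny124 and 16.1 ± 4.10 CPM in WT. Both lines were called, TINYOE at 0.80 ± 0.22 (adjusted p = 0.022) and tiny124 at 1.20 ± 0.22 (adjusted p = 0.00741), and the TINYOE call was lost without TINYOE replicate 1.

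Among the genes that carry the sugar signal, 1 bZIP factor and 1 SnRK1 subunit were called in both lines against WT. For comparison, 15.6% of all genes tested were called in TINYOE against WT (8.15% higher) and 2.5% in tiny124 (1.75% higher). bZIP1, an S1 group factor known to be induced by sugar starvation and to bind the ASN1 promoter, had 143, 148 and 128 CPM in TINYOE, 80.6, 84.7 and 82.4 CPM in tiny124, and 24.9, 36.4 and 29.7 CPM in WT. The genotypes did not overlap in any pair. The bZIP1 log2 fold change was 2.20 ± 0.18 in TINYOE over WT (adjusted p = 2.59e-06), 1.45 ± 0.17 in tiny124 over WT (adjusted p = 0.00024) and 0.76 in TINYOE over tiny124 (adjusted p = 0.00732), each called in all 15 alternatives. Of the 9 C and S1 group factors, 2 rose in TINYOE (median 0.17) and 1 in tiny124 (median 0.24). The second in TINYOE was bZIP63, a C group factor that SnRK1 phosphorylates (0.55 ± 0.18, adjusted p = 0.0477). Its call was made in 5 of 15 alternatives. It was lost with no filter, with only the 6 libraries compared, without any 1 of the TINYOE or tiny124 libraries, and without WT replicate 1. Of 7 SnRK1 subunit genes edgeR called KINBETA1 in both lines and no other. KINBETA1 was at 116 ± 20.2 CPM in TINYOE, 112 ± 20.8 CPM in tiny124 and 63.4 ± 10.12 CPM in WT (0.87 ± 0.19 in TINYOE, adjusted p = 0.00595, and 0.81 ± 0.19 in tiny124, adjusted p = 0.0327). The tiny124 call for KINBETA1 was lost with only the 6 libraries compared, and without tiny124 replicate 1 or 3 or WT replicate 2 or 3. KINGAMMA, singled out after its values were seen, lay above WT in every library of both lines and did not pass in edgeR (0.45 in TINYOE, adjusted p = 0.0798, and 0.61 in tiny124, adjusted p = 0.0677), while DESeq2 called it in tiny124 (adjusted p = 0.0179). KIN10, also singled out after its values were seen, lay below every WT library in TINYOE and did not pass (-0.60, adjusted p = 0.124). Without WT replicate 2, KIN10 was called lower in TINYOE. The median of the 7 subunits was -0.047 in TINYOE and -0.072 in tiny124.

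**Figure D4:**
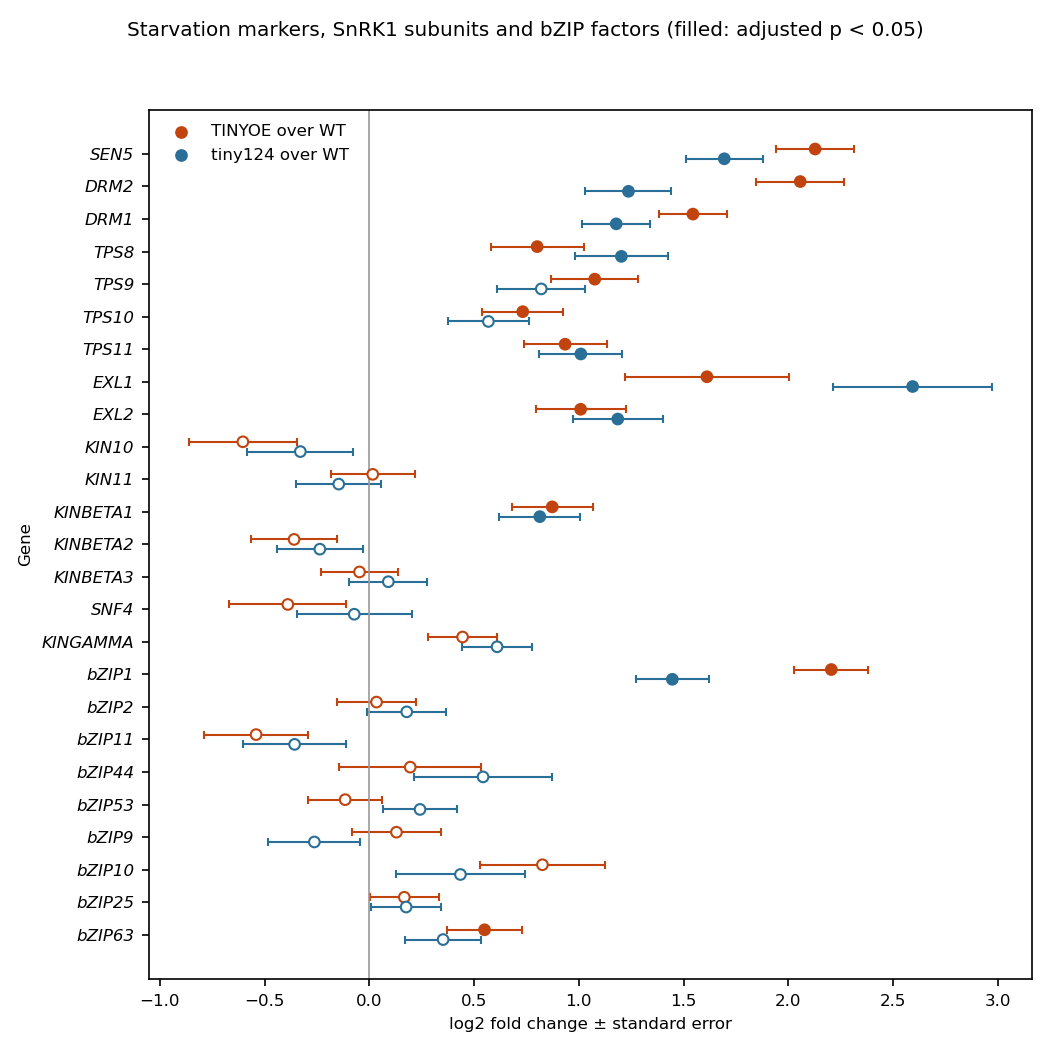
Log2 fold changes over WT with their standard errors for 9 further starvation markers, 7 SnRK1 subunit genes and 9 bZIP genes of the C and S1 groups, in TINYOE and tiny124. Filled points have an adjusted p under 0.05. All 9 markers are filled in TINYOE and 7 in tiny124, and among the signalling genes bZIP1 and KINBETA1 are filled in both lines.

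Of 9 ATG8 genes, whose products build the autophagosome that recycles cell contents in starvation, 1 rose in TINYOE and none in tiny124. Among all genes tested, 8.15% were higher in TINYOE and 1.75% in tiny124. DESeq2 called 2 ATG8 genes higher in TINYOE, and 2 were at an unadjusted p under 0.05 there in edgeR. ATG8E was at 85.7 ± 16.7 CPM in TINYOE, 61.7 ± 9.60 CPM in tiny124 and 44.8 ± 16.9 CPM in WT, with a log2 fold change of 0.94 ± 0.24 in TINYOE over WT (adjusted p = 0.0134). That call was lost without TINYOE replicate 1 or 2 or WT replicate 3. In tiny124 no ATG8 gene was called by edgeR or by DESeq2, with 1 at an unadjusted p under 0.05 and 1 called without WT replicate 2. ATG8F, the most abundant of them, was at 85.1 ± 8.70 CPM in TINYOE, 95.9 ± 3.60 CPM in tiny124 and 71.3 ± 3.54 CPM in WT, and was not called.

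SEN1 and the DIN genes are also read as senescence markers. Of 9 other senescence genes tested, 2 rose in TINYOE (median 0.37), and 1 rose in tiny124 (median 0.014). edgeR also called SAG12 lower in TINYOE, a call not used here for the reason given below. The same call was made in all 14 alternatives with a value for it, DESeq2 included. Of the 9 genes, 5 had a log2 fold change above 0 in TINYOE and 5 in tiny124. SAG13, singled out after its values were seen, was not called in TINYOE (-0.93, adjusted p = 0.163) or in tiny124 (-1.05, adjusted p = 0.34). SAG21, a late embryogenesis abundant protein gene induced by stress and senescence, had 624, 712 and 687 CPM in TINYOE, 389, 403 and 419 CPM in tiny124, and 181, 296 and 199 CPM in WT, and was called in TINYOE (1.58 ± 0.18, adjusted p = 3.75e-05) and in tiny124 (0.84 ± 0.18, adjusted p = 0.0185). The tiny124 call of SAG21 was lost with only the 6 libraries compared, without any 1 of the tiny124 libraries, and without WT replicate 3. The transcription factor gene WRKY53 rose in TINYOE (1.10 ± 0.25, adjusted p = 0.00629). In tiny124 its libraries lay above every WT library without passing the test (0.94 ± 0.25, adjusted p = 0.0597), and it was called there in 3 of 15 alternatives. Between TINYOE and tiny124 the WRKY53 value was 0.16 (adjusted p = 0.725). SAG12, a cysteine protease gene of late senescence, had 0, 0.18 and 0.51 CPM in TINYOE, 5.27, 1.98 and 0.73 CPM in tiny124, and 12.5, 4.24 and 2.02 CPM in WT. No TINYOE library of SAG12 reached the filter's level, and its 0, 1 and 3 counts give no firm fold. SAG12 passed the filter through the WT libraries and some tiny124 libraries, where it was higher, so its call in TINYOE is not used. The fitted log2 fold change was -4.66, and it was -3.63 without WT replicate 1 and -5.87 without TINYOE replicate 3.

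The 3 genes closest to each of 4 members were found by Pearson's r of log2 CPM over the 9 libraries, among 12086 genes with a mean of at least 5 CPM. These r values describe libraries that fall into 3 genotypes and carry no test. Closest to SEN1 were AT3G19030 (r = 0.991), AT2G33830, which is DRM2 (0.985), and AT1G72060 (0.985). AT1G72060 averaged 47.2 CPM in TINYOE, 21.3 CPM in tiny124 and 9.37 CPM in WT. Closest to ASN1 were AT5G43830 (r = 0.992), AT1G68670 (0.981) and the phytosulfokine precursor gene PSK4 (0.976). PSK4 averaged 11.6 CPM in TINYOE, 12.0 CPM in tiny124 and 4.64 CPM in WT. Closest to DIN10 were the LOB-domain factor gene LBD38 (r = 0.990), the homeobox gene HB-2 (0.989) and AT2G40095 (0.987). LBD38 averaged 57.8 CPM in TINYOE, 34.8 CPM in tiny124 and 18.3 CPM in WT. Closest to SIS were AT1G80440 (r = 0.991), AT4G16500 (0.979) and AT5G18030 (0.979), and AT1G80440 averaged 233 CPM in TINYOE, 66.6 CPM in tiny124 and 24.6 CPM in WT.

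Organ markers also differed between the genotypes, though not in the same way in both lines. The summed level of the 5 leaf markers was 13257 to 14284 CPM in TINYOE, 17538 to 19282 CPM in tiny124 and 18449 to 22840 CPM in WT, and all 5 fell in TINYOE, while none was called in tiny124 by edgeR, 1 by DESeq2 and 2 at an unadjusted p under 0.05. The TINYOE call was made in all 15 alternatives for GLDP1, in 14 for LHCB2.1 (not without WT replicate 3), in 12 for RCA (not without TINYOE replicate 2 or 3 or WT replicate 3), in 9 for RBCS1A and in 4 for CA1. Those of RBCS1A and CA1 were lost, among others, without any 1 TINYOE library or without WT replicate 3, and that of CA1 also without any 1 tiny124 library or WT replicate 2. The summed level of 6 flower markers was 30.5 to 64.2 CPM in TINYOE, 27.0 to 30.7 CPM in tiny124 and 16.7 to 30.4 CPM in WT. All 5 flower markers tested had a log2 fold change above 0 in TINYOE (median 1.02) and an unadjusted p under 0.05, and 1 of them (PI, adjusted p = 0.0282) was called. AP1 reached the filter's level of 1.8 CPM only in TINYOE, and AG reached it in no WT library. Both were thus tested largely because they were high in TINYOE, and the count and median that include them partly follow from the filter. The PI call was made in 9 of 15 alternatives and was lost with only the 6 libraries compared, and without TINYOE replicate 2 or 3 or WT replicate 2 or 3. The summed level of 6 root markers was 19.1 to 34.5 CPM in TINYOE, 46.1 to 56.7 CPM in tiny124 and 15.7 to 25.7 CPM in WT, with 1, 2 and 2 of the 6 genes at 0 counts. The root markers PLT1, RHD6 and EXPA7 were each at 0 or near it, and PYK10, which rose in tiny124 (1.64 ± 0.32, adjusted p = 0.0114), made up most of that sum there. The part of these markers in the values of the starvation genes was not tested.

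The starvation genes are known to follow the hour of the day, and the hour of harvest is not in the labels, so 9 clock genes were set beside them, chosen after their values were seen. LHY, a gene that peaks at dawn, had 30.8, 39.1 and 28.4 CPM in TINYOE, 47.45, 35.6 and 70.8 CPM in tiny124, and 139, 76.0 and 133 CPM in WT. It fell in TINYOE (-1.83 ± 0.26, adjusted p = 0.00025) and in tiny124 (-1.18 ± 0.26, adjusted p = 0.0206). The tiny124 call of LHY was lost without tiny124 replicate 1 or 2 or WT replicate 3. Its partner CCA1 also fell in TINYOE (-0.66, adjusted p = 0.0382) and in tiny124 (-0.89, adjusted p = 0.0314). The CCA1 call was made in 8 of 15 alternatives in TINYOE (lost with only the 6 libraries compared, and without TINYOE replicate 2 or 3, tiny124 replicate 1, or WT replicate 2 or 3) and in 10 of 15 in tiny124 (lost without any 1 tiny124 library or WT replicate 3). The morning gene PRR9 reached the filter's level only in WT, with 0.99, 0.53 and 0.34 CPM in TINYOE, 0.56, 1.32 and 0.91 CPM in tiny124, and 3.80, 2.54 and 2.38 CPM in WT. It passed the filter only through the genotype where it was high, so its call in TINYOE is not used. The evening gene LUX was called higher in TINYOE by edgeR (0.77, adjusted p = 0.0451) and not by DESeq2 (adjusted p = 0.101). The LUX call was made in 3 of 15 alternatives, and leaving out any 1 library other than WT replicate 2 ended it. With PRR9 included, edgeR called 1 of the 9 clock genes higher and 3 lower in TINYOE, and DESeq2 called 0 higher and 3 lower. In tiny124 both tools called 2 lower. The part of the clock genes or of the harvest hour in the values of the starvation genes was not tested.

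**Figure D5:**
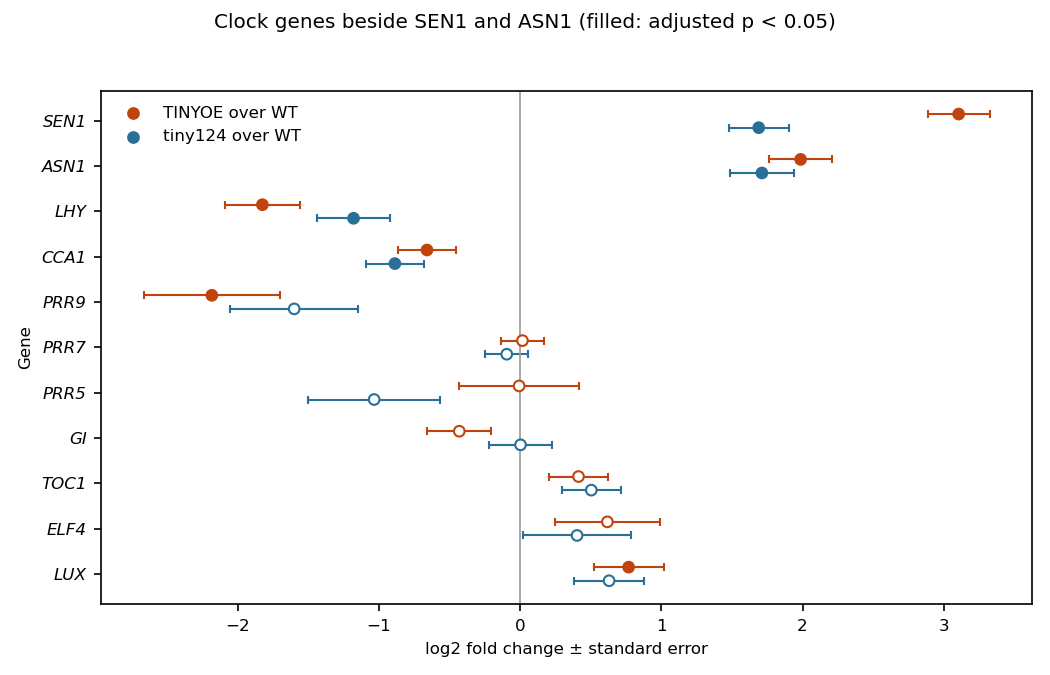
Log2 fold changes over WT with their standard errors for SEN1, ASN1 and 9 clock genes in TINYOE and tiny124, with points filled where the adjusted p is under 0.05. SEN1 and ASN1 lie to the right of 0 in both lines, and LHY and CCA1 lie to the left of 0 in both.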

How the data were processed

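The deposited counts are whole reads per gene, not normalized, from 9 libraries made with a QuantSeq 3′ kit from about 500 ng of total RNA and read as single 50 nt reads. The labels give trimming and mapping to TAIR10 by version 2.2.2 of BlueBee's pipeline for that kit, as run by the authors. The authors also deposited log2 fold changes and p-values for TINYOE and tiny124 against WT, and the submitters' processing notes name DESeq2. Those tables were used only where the text names them, and 20 of their columns of per-library values were not used.

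Of 32833 genes, 32548 were found in the RefSeq annotation of TAIR10.1. The filterByExpr function of edgeR kept 16434 genes, and those dropped held 0.296% of counts. Calls came from the quasi-likelihood test of edgeR 4.0.16 (run with R 4.3.3 and limma 3.58.1) after TMM scaling, with all 9 libraries in 1 fit by genotype and 6 residual degrees of freedom. The common biological coefficient of variation came to 0.18. The test was two-sided, with Benjamini-Hochberg adjustment over all genes tested and a threshold of 0.05. The script was tested on simulated data.

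The 10 genes, the lists and the tests were chosen with earlier results of these data known. Named genes were the 10 genes, TINY and TINY2, up to 4 called genes of each list and comparison against WT by size of change (or the most abundant where none was called), and the 3 genes closest to SEN1, ASN1, DIN10 and SIS. Clock, leaf, flower and root genes, and PMI1, ASN3, KINGAMMA, KIN10 and SAG13, are named outside that rule. Alternatives were DESeq2 1.42.0, DESeq2 size factors, no filter, at least 5 CPM in at least 3 libraries, only the 6 libraries compared, a replicate block, and leaving out each library. The floor of 3 counts covers counting error only.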

Additional observations from a re-analysis of the deposited data

Results flagged for a closer look

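For 3 of the 10 genes the difference from WT was unequal between the lines, by a test of TINYOE against tiny124 in edgeR's fit across all genes. On the log2 scale TINYOE minus tiny124 was 1.42 for SEN1 (adjusted p = 0.000274) and 1.63 for SIS (adjusted p = 0.000446), both higher in TINYOE. For DIN11 it was -1.72 (adjusted p = 0.00852), lower in TINYOE. In each of these genes all 3 TINYOE libraries lay on 1 side of all 3 tiny124 libraries.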

How the results depend on the processing

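The number of the 10 genes called in tiny124 against WT, 5 as reported, was 2 to 5 when libraries were left out in turn, and was 2 without tiny124 replicate 1 or 2 and 3 without WT replicate 3. It was 4 to 6 in TINYOE against WT over all 15 alternatives. Over all genes, 2561 were called in TINYOE against WT (1604 to 4032 with 1 library left out), 411 in tiny124 against WT (167 to 526, and 706 with no filter on low counts) and 1618 in TINYOE against tiny124 (946 to 2205). Over all alternatives, 7 to 9 of the further starvation markers, 1 to 4 bZIP factors and 0 to 3 ATG8 genes were called in TINYOE against WT, and 6 to 8 markers, 0 to 2 SnRK1 subunits and 0 to 4 senescence genes in tiny124 against WT. Without WT replicate 2, 4 bZIP factors (3 higher and 1 lower) and 3 ATG8 genes (all higher) were called in TINYOE. The directions that turned were of genes not called. With 1 library left out, the log2 fold change of TINYOE over WT ran from -0.066 (without WT replicate 1) to 0.93 for DIN11 and from -0.086 to 0.13 for ASN2, and that of tiny124 over WT from -0.19 (without WT replicate 3) to 0.34 for BCAT2. Between TINYOE and tiny124 it ran from -0.018 to 0.365 for DIN4, from -0.093 to 0.16 for KINBETA1 and from -0.020 to 0.35 for WRKY53. The cause was not tested.

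With the replicate number as a block, 2142 genes were called in TINYOE against WT (5 of the 10), 292 in tiny124 against WT (5 of the 10) and 1344 in TINYOE against tiny124 (3 of the 10). Of the calls of the 10 genes it changed that of DIN4 in TINYOE (adjusted p = 0.0552). Of the other calls against WT that the text names, those of MCCB (adjusted p = 0.0834), GDH2 (0.0613), bZIP63 (0.0801), RBCS1A, CA1, PI, CCA1 and LUX in TINYOE and those of KINBETA1 and CCA1 in tiny124 were also not made. The deviations of same-numbered libraries had correlations from -0.31 to 0.36, not all above 0.1, and not every library correlated best with its own number. With 3 libraries in each genotype, these values cannot tell whether same-numbered libraries were handled together. DIN11 and BCAT2 have no value at the filter of 5 CPM in 3 libraries. At this depth, differences in genes of a few counts, DIN2 and DIN9 included, were not detectable.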
